A study of Mus musculus with 17 samples.

Results

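Transcripts of 4 immune checkpoint ligands were followed in azoxymethane-treated mouse colon: Cd276 (B7-H3), Vtcn1 (B7-H4), 4632428N05Rik (VISTA, now named Vsir) and Lgals9 (galectin 9). They were chosen by name, as ligands or counter-receptors outside the CD28 and PD-1 ligand pairs, with earlier results of these data known. They are 4 of the 988 genes on the panel. All 4 were detected in all 17 libraries and passed the low-count filter in every comparison. The libraries came from a targeted amplicon panel for mouse immuno-oncology genes (QIAseq), read on colon tumors and on preneoplastic colon. Kit-B6 mice are C57BL/6 animals with normal Kit. Kit-W/sh mice are the W-sash strain, in which an inversion upstream of Kit, the stem cell factor receptor gene, leaves adults deficient in mast cells. Every group received azoxymethane, a colon carcinogen, by intraperitoneal injection, and no group was untreated. Tumors (6 samples of Kit-B6, 6 of Kit-W/sh) were taken at postnatal week 32, after 6 injections over 6 weeks and 18 further weeks. Preneoplastic colon (3 samples of Kit-B6, 2 of Kit-W/sh) was taken at postnatal week 14, after 3 injections over 3 weeks and 3 further weeks. Stage is therefore tied to age, number of injections and tissue, and these cannot be told apart.

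B7-H3, B7-H4 and VISTA are membrane proteins of the immunoglobulin superfamily that are related to the B7 ligands CD80 and CD86 and can restrain T cell activation. B7-H3 and B7-H4 are often found on carcinoma cells, whereas VISTA is best known on myeloid cells and T cells. Galectin 9 is a secreted lectin that binds sugars on cell-surface proteins, is made by epithelium and leukocytes, and is a proposed ligand of TIM-3, an inhibitory receptor of T cells.

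The promoters of the 4 genes are shown as background, and these windows differ in base composition and in short motifs. A link between these features and the ligands' levels was not tested. All 4 matched RefSeq entries on GRCm38.p6, and each sequence runs from 250 bases before to 30 bases after the annotated start, 5′ to 3′ on the gene's strand. The start used is 1 annotated start and need not be the only one. Its first 25 bases were held by 0 of 4 GENCODE transcripts of Cd276 and 1 of 1 of Vtcn1. For 4632428N05Rik it was 2 of 7, and for Lgals9 2 of 4. Those bases are genomic, so a splice within them also removes a match. Composition and motifs below describe these windows. Capitals mark matches to any of 4 motifs searched on both strands: GGGCGG (GC box), TGANTCA (AP-1 site), GAAA, any 2 bases and GAAA again (interferon-stimulated response element core) and TTCNNNGAA (gamma-activated site core).
Cd276, chr9:58555004-58555283, minus strand: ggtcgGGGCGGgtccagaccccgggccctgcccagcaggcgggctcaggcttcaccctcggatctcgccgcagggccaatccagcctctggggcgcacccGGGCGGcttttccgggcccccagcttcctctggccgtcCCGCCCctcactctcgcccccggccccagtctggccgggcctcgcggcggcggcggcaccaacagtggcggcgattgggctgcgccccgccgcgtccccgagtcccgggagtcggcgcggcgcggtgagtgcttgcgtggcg
Vtcn1, chr3:100825209-100825488, plus strand: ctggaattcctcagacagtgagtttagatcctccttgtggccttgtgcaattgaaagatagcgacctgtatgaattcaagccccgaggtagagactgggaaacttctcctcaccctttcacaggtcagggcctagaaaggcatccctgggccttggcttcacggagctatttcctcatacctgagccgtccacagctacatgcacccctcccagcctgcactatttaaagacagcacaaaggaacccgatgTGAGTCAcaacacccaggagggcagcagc
4632428N05Rik, chr10:60346601-60346880, plus strand: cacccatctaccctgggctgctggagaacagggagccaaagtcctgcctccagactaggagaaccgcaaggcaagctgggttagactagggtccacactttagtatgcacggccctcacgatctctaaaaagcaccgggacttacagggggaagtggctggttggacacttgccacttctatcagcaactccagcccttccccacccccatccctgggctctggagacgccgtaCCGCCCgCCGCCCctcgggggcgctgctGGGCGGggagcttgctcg
Lgals9, chr11:78984895-78985174, minus strand: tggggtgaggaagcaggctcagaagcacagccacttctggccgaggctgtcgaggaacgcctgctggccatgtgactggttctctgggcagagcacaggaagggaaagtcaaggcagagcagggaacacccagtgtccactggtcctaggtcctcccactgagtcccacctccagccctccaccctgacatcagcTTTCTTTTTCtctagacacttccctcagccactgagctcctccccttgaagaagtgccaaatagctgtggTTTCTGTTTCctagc

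The Cd276 window had a GC content of 77.9%, 36 CpG dinucleotides and 3 GC boxes. The 4632428N05Rik window had a GC content of 62.5%, 13 CpG dinucleotides and 3 GC boxes, and GC boxes were present in 34.7% of 32851 promoter windows of the same length and in 47% of the 946 windows of panel genes. Vtcn1 had a GC content of 52.9%, 5 CpG dinucleotides and 1 AP-1 match, TGAGTCA, from base 2 to base 8 after the start. An AP-1 match was present in 7.46% of all windows and 8.88% of panel windows. Lgals9 had a GC content of 57.1%, 3 CpG dinucleotides and 2 interferon-stimulated response element cores on the reverse strand. The first, TTTCTTTTTC, lay from base -55 to base -46, and the second, TTTCTGTTTC, from base 16 to base 25. That core was present in 3.28% of all windows and in 5.5% of panel windows. No window of the 4 held the gamma-activated site core, which was present in 7.83% of all windows and 8.25% of panel windows. A match is a run of letters only, and binding was not measured here.

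Library totals lay between 616009 and 1399902 counts, and levels are given as CPM (counts scaled to a common library size) after edgeR's TMM scaling. Because each amplicon amplifies with its own efficiency, levels are compared between samples of 1 gene and not between genes. Kit lay between 93.68 and 473.4 CPM in Kit-B6 tumors and between 48.87 and 257.5 CPM in Kit-W/sh tumors, but the inversion spares the coding sequence, so the amplicon does not check the genotype. The mast cell protease gene Cpa3 went against 1 label: the library labelled Kit-W/sh tumor 2 had 459.5 CPM, the highest of all 17, while the other Kit-W/sh tumors had 0 to 9.812 CPM. Kit-B6 tumor 4 also stood apart, with 85.42 CPM of the leukocyte gene Ptprc (CD45), the lowest of all libraries. Epcam, an epithelial adhesion gene, lay between 22170 and 34600 CPM in every library, and the dendritic cell list had 0 of 8 genes measured. The tissue was bulk, so fewer cells of a type and less RNA per cell cannot be told apart.

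**Figure D1:**
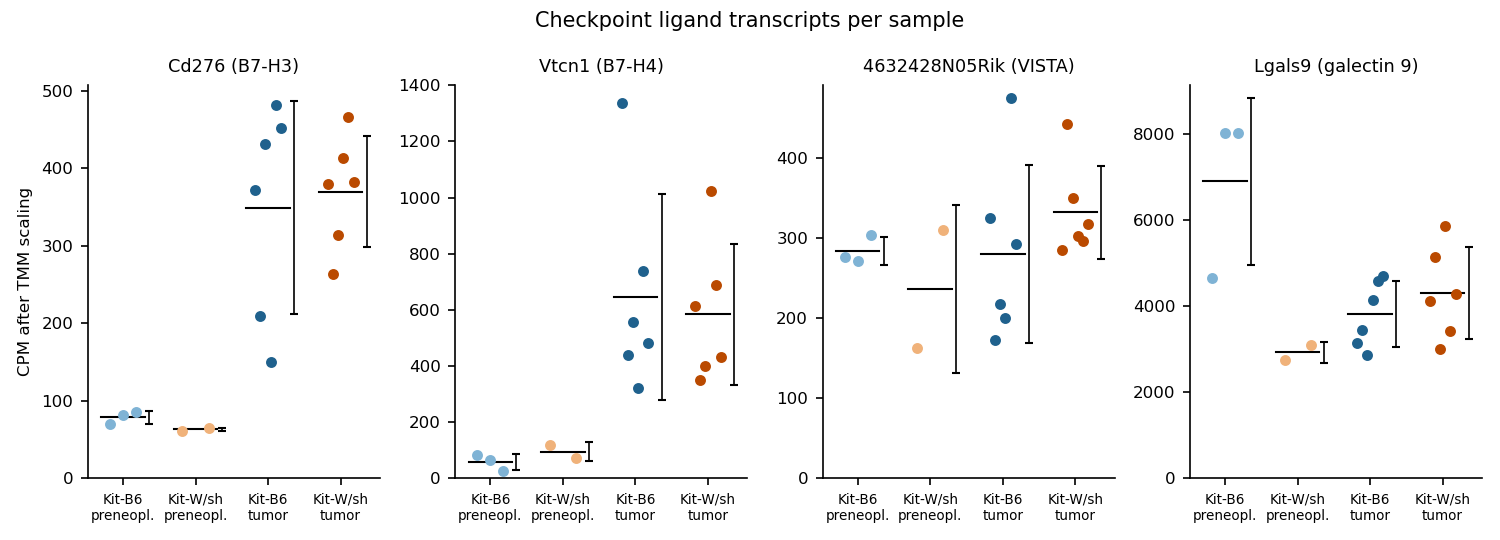
Level of each ligand in each sample (CPM after TMM scaling, linear axes that start at 0). Points are samples, horizontal lines are group means and bars are ± 1 SD; tumors lie above all preneoplastic samples for Cd276 and Vtcn1, the groups overlap for 4632428N05Rik, and Lgals9 is highest in Kit-B6 preneoplastic colon.

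The first question was which ligands differed between tumors and preneoplastic colon. Cd276 and Vtcn1 rose in tumors of both genotypes, 4632428N05Rik did not pass the test in either, and Lgals9 fell in Kit-B6 tumors and did not pass in Kit-W/sh. In Kit-B6, 3 of the 4 ligands passed edgeR's test at an adjusted p under 0.05, where 41.1% of the 869 genes tested did, 22.2% higher in tumors and 18.9% lower. In Kit-W/sh, 2 of the 4 passed, where 39.7% of the 869 did, 20.9% higher and 18.8% lower. That share rested on the preneoplastic pair: without Kit-W/sh preneoplastic 1, 132 of 893 genes were called, and without preneoplastic 2, 159 of 893. Calls were thus common on this panel, and the members' counts are read against those shares. Both stage comparisons come from 1 fit of all 17 libraries, with a shared estimate of the spread.

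Cd276 encodes B7-H3, whose receptor is still debated. In Kit-B6 preneoplastic colon it measured 69.67, 81.62 and 85.24 CPM, and in Kit-B6 tumors 150.3 at the lowest, 402.1 at the median and 481.7 at the highest. All 6 tumors were above all 3 preneoplastic samples, and tumors 4 and 2 were the lowest. Of all genes tested, 29.3% did not overlap between these groups, 16.2% with tumors higher and 13.1% with tumors lower. In Kit-W/sh preneoplastic colon it measured 61.49 and 64.68 CPM, against a lowest of 263.7, a median of 380.9 and a highest of 466.7 in tumors. Again no tumor overlapped the preneoplastic samples, as for 58.2% of all genes tested, 29.6% with tumors higher and 28.7% lower. The log2 difference, tumor minus preneoplastic, was 2.15 ± 0.35 (SE) in Kit-B6, 4.43-fold, with an edgeR adjusted p of 0.000197. In Kit-W/sh it was 2.55 ± 0.42, 5.85-fold, with an edgeR adjusted p of 0.000462. The 4 group means were 369.9 ± 71.85 CPM (SD, n = 6) in Kit-W/sh tumors, 349.5 ± 137.5 (n = 6) in Kit-B6 tumors, 78.85 ± 8.149 (n = 3) in Kit-B6 preneoplastic colon and 63.08 ± 2.253 (n = 2) in Kit-W/sh preneoplastic colon. Neighbouring tumor means lay within their spread.

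Vtcn1 encodes B7-H4, a T cell inhibitory ligand of epithelial and some myeloid cells. It measured 84.34, 63.49 and 26.35 CPM in Kit-B6 preneoplastic colon, and in Kit-B6 tumors 322.1 at the lowest, 519.5 at the median and 1337 at the highest. Tumor 1 was far above the others, and every tumor was above every preneoplastic sample. In Kit-W/sh it measured 119.4 and 71.56 CPM in preneoplastic colon, and 350 at the lowest, 522.6 at the median and 1022 at the highest in tumors. There was no overlap here either. The log2 difference was 3.48 ± 0.54 in Kit-B6, 11.2-fold, with an edgeR adjusted p of 0.000168. It was 2.62 ± 0.61 in Kit-W/sh, 6.14-fold, with an edgeR adjusted p of 0.00384. Without Kit-W/sh preneoplastic 2 the latter was 2.29, and the call was lost (edgeR adjusted p = 0.0649). Group means were 645.6 ± 365.8 CPM (SD, n = 6) in Kit-B6 tumors, 584.2 ± 251.4 (n = 6) in Kit-W/sh tumors, 95.46 ± 33.8 (n = 2) in Kit-W/sh preneoplastic colon and 58.06 ± 29.37 (n = 3) in Kit-B6 preneoplastic colon. Neither the pair of tumor means nor the pair of preneoplastic means differed beyond the spread. Preneoplastic levels of Vtcn1 rested on few counts, 17 to 66 per library, and those of Cd276 on 34 to 55.

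4632428N05Rik encodes VISTA. It measured 276.9, 272.1 and 303.8 CPM in Kit-B6 preneoplastic colon, and 173.1 at the lowest, 255.6 at the median and 475.3 at the highest in Kit-B6 tumors. The tumors fell on both sides of the preneoplastic samples. In Kit-W/sh it measured 162.8 and 311 CPM in preneoplastic colon, and 285.3 at the lowest, 310.2 at the median and 442.6 at the highest in tumors. The highest tumor was the library labelled Kit-W/sh tumor 2, and the groups overlapped. The log2 difference was -0.01 ± 0.29 in Kit-B6 (edgeR adjusted p = 0.971) and 0.49 ± 0.34 in Kit-W/sh (edgeR adjusted p = 0.259). Group means were 332.7 ± 58.4 CPM (SD, n = 6) in Kit-W/sh tumors, 284.2 ± 17.09 (n = 3) in Kit-B6 preneoplastic colon, 280.9 ± 111.4 (n = 6) in Kit-B6 tumors and 236.9 ± 104.8 (n = 2) in Kit-W/sh preneoplastic colon. No neighbours in that order differed beyond their spread.

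Lgals9 encodes galectin 9, whose window above held both interferon-stimulated response element cores. It measured 4666, 8025 and 8033 CPM in Kit-B6 preneoplastic colon, and 2873 at the lowest, 3794 at the median and 4696 at the highest in Kit-B6 tumors. In Kit-B6, 5 of 6 tumors were below all preneoplastic samples, and tumor 6 was just above preneoplastic 1. In Kit-W/sh it measured 2753 and 3106 CPM in preneoplastic colon, and 3009 at the lowest, 4205 at the median and 5861 at the highest in tumors. There, 5 of 6 tumors were above both preneoplastic samples. The log2 difference was -0.86 ± 0.22 in Kit-B6, 1.81-fold lower in tumors, with an edgeR adjusted p of 0.00704. In Kit-W/sh it was 0.56 ± 0.28, with an edgeR adjusted p of 0.118. Group means were 6908 ± 1941 CPM (SD, n = 3) in Kit-B6 preneoplastic colon, 4307 ± 1062 (n = 6) in Kit-W/sh tumors, 3814 ± 765.9 (n = 6) in Kit-B6 tumors and 2929 ± 249.8 (n = 2) in Kit-W/sh preneoplastic colon. The tumor means lay within their spread.

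An exact permutation test of the mean log2(CPM + 1) was run for each ligand in the 4 pairwise comparisons, 16 tests in all. In Kit-B6 the stage difference was 2.02 for Cd276 and 3.45 for Vtcn1, each with a two-sided exact p of 0.0238, the smallest that 6 against 3 samples allow. For Lgals9 it was -0.84 with an exact permutation p of 0.0476. Adjusted over the 16 tests by Benjamini-Hochberg, these became 0.19, 0.19 and 0.229 and no longer passed. Given the floor of 0.0238, no Kit-B6 stage test could pass unless all 4 ligands had as small a p between genotypes in tumors. The adjusted values therefore decide nothing about the stage differences. In Kit-W/sh, 6 against 2 samples cannot go below an exact p of 0.0714, which Cd276 (2.51) and Vtcn1 (2.55) both reached.

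Choice of scaling mattered by stage. Scaling to the 3 reference genes measured (B2m, Tfrc, Rpl13a) moved the median log2 difference of all genes to 0.75 in Kit-B6, from near 0, and raised the share of calls that were higher from 54.1% to 90.6%. With unscaled library totals that share was 73%, and with the genes listed last it was 62.6%. In Kit-W/sh the share was 52.8% with TMM, 70.1% with unscaled totals, 78.9% with reference genes and 70% with the last-listed genes. Under reference scaling Lgals9 differed by -0.11 in Kit-B6 (edgeR adjusted p = 0.728), below the shifted median. In Kit-W/sh it differed by 1.01 (edgeR adjusted p = 0.0188), where the median of all genes moved to 0.529, from 0.081 with TMM. The reference gene B2m was itself lower in tumors after TMM scaling. Its means were 13330 CPM in tumors and 49790 in preneoplastic colon of Kit-B6, and 14180 and 28020 in Kit-W/sh. Cd276 and Vtcn1 kept their direction and their call under every scaling run.

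**Figure D2:**
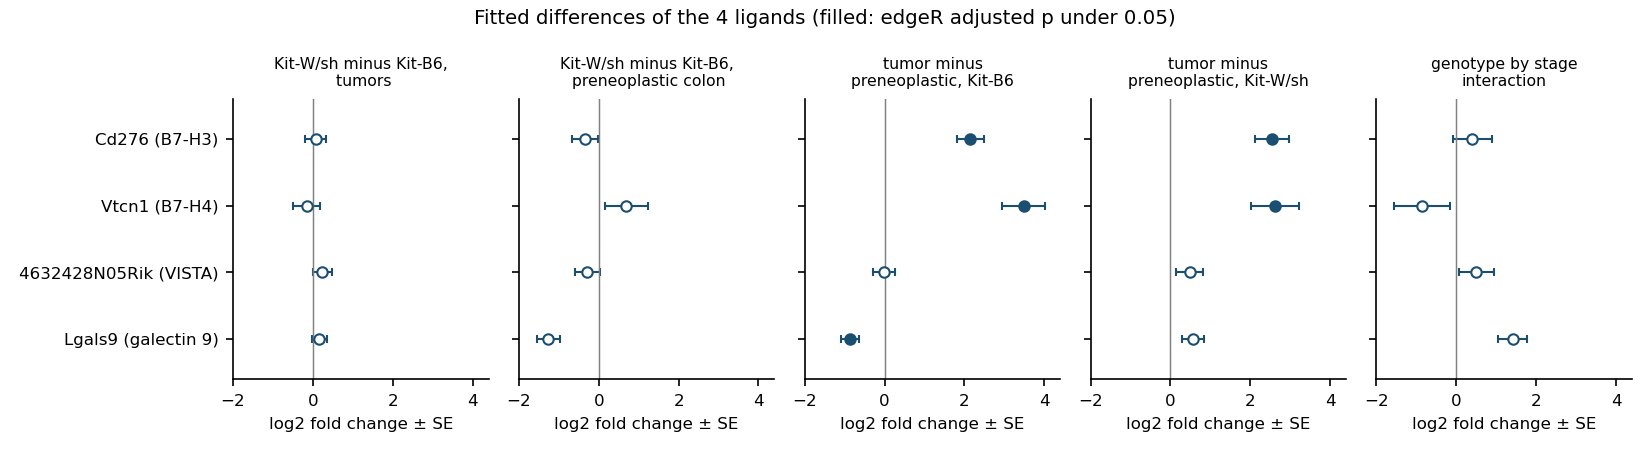
Fitted log2 fold change ± SE of each ligand in the 5 comparisons, with filled points where edgeR's adjusted p was under 0.05. Cd276 and Vtcn1 are filled in both stage panels, Lgals9 in Kit-B6 alone, and no point is filled in the genotype or interaction panels.

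Markers of several cell types moved with stage. The summed monocyte and macrophage markers (9 of 11 listed genes measured, 1 of them at 0 throughout) were 1432 to 3508 CPM in Kit-B6 tumors and 1201 to 1275 in Kit-B6 preneoplastic colon. In Kit-W/sh they were 2357 to 3886 CPM in tumors and 1262 to 1507 in preneoplastic colon. Fibroblast and pericyte markers (4 of 10 measured) were 4439 to 19830 and 7824 to 14490 CPM in Kit-B6 and Kit-W/sh tumors, against 2438 to 4695 and 2315 to 4666 in preneoplastic colon. Single markers went against both sums: the fibroblast protease gene Fap fell in tumors of Kit-B6 (-1.65 ± 0.39, edgeR adjusted p = 0.00393) and Kit-W/sh (-2.33 ± 0.43, 0.000811), and the macrophage scavenger receptor gene Cd163 fell too (-2.45 ± 0.94, edgeR adjusted p = 0.0458, and -3.22 ± 1.11, 0.0309). Cd163 rested on few tumor counts, 36 over the 6 Kit-B6 libraries and 15 over the 6 Kit-W/sh ones. Neutrophil markers (4 of 8 measured) were 61.75 to 257.4 and 272.2 to 757.8 CPM in tumors. They were 6.2 to 12.83 and 7.234 to 15.14 CPM in preneoplastic colon. T cell markers (10 of 10 measured) were 98.77 to 585.1 CPM in Kit-B6 tumors and 546.4 to 1535 in Kit-B6 preneoplastic colon, with medians of 310.2 and 829.2. In Kit-W/sh they were 221.4 to 781 CPM in tumors and 639.9 to 774.1 in preneoplastic colon, with medians of 265.7 and 707. Each sum is ruled by its largest amplicons, on average Cd14 for macrophages and Col3a1 and Fn1 for fibroblasts. For T cells, Trat1 averaged 340.5 and 246.5 CPM in Kit-B6 and Kit-W/sh preneoplastic colon, and 2.996 and 5.623 in tumors. Of the 10 T cell markers, edgeR called 3 lower in Kit-B6 tumors and 1 in Kit-W/sh tumors. B cell markers (7 of 8 measured) were 31.9 to 692.6 CPM in Kit-B6 tumors and 143 to 2757 in Kit-B6 preneoplastic colon. The medians were 45.99 and 942.3. In Kit-W/sh they were 15.85 to 115.7 and 141.7 to 294.8 CPM, without overlap, as for 58.2% of all single genes tested. Of 6 B cell markers tested, edgeR called 4 lower in Kit-B6 tumors and 0 in Kit-W/sh tumors. Of the epithelial list, 2 of 10 genes were measured: Epcam, which did not pass the test by stage in Kit-B6 (0.02 ± 0.16, edgeR adjusted p = 0.911), and Car4, a mature colonocyte enzyme, at 180.3 to 14840 CPM in Kit-B6 tumors and 26010 to 92830 in Kit-B6 preneoplastic colon. The part of these cell types in the ligands' differences was not tested.

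The ligands were also set against marker genes of the same library, in a comparison added after the data were seen. Relative to Epcam, the Kit-B6 stage difference was 2.02 for Cd276, 3.46 for Vtcn1, -0.12 for 4632428N05Rik and -0.85 for Lgals9. Relative to Ptprc these were 2.41, 3.85, 0.27 and -0.47. The unadjusted exact permutation p of Lgals9, 0.0476 for CPM, was 0.0952 relative to Epcam and 0.452 relative to Ptprc. Relative to the macrophage sum, the 4 differences were 1.10, 2.54, -1.04 and -1.77, each with an exact permutation p of 0.0238. That sum was itself higher in all Kit-B6 tumors (1432 to 3508 CPM) than in Kit-B6 preneoplastic colon (1201 to 1275), so the ratios include its rise. No share over all genes was taken on that scale. Adjusted over the 16 tests on that scale, the p of 0.0238 became 0.0952, so none of the 4 passed, an outcome that the floor given above nearly fixed. In Kit-W/sh the 4632428N05Rik and Lgals9 differences, 0.55 and 0.52 per library, were 0.63 and 0.61 relative to Epcam. They were -0.12 and -0.15 relative to Ptprc and -0.65 and -0.68 relative to the macrophage sum. Cd276 and Vtcn1 stayed higher in tumors on all 3 scales in both genotypes.

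**Figure D3:**
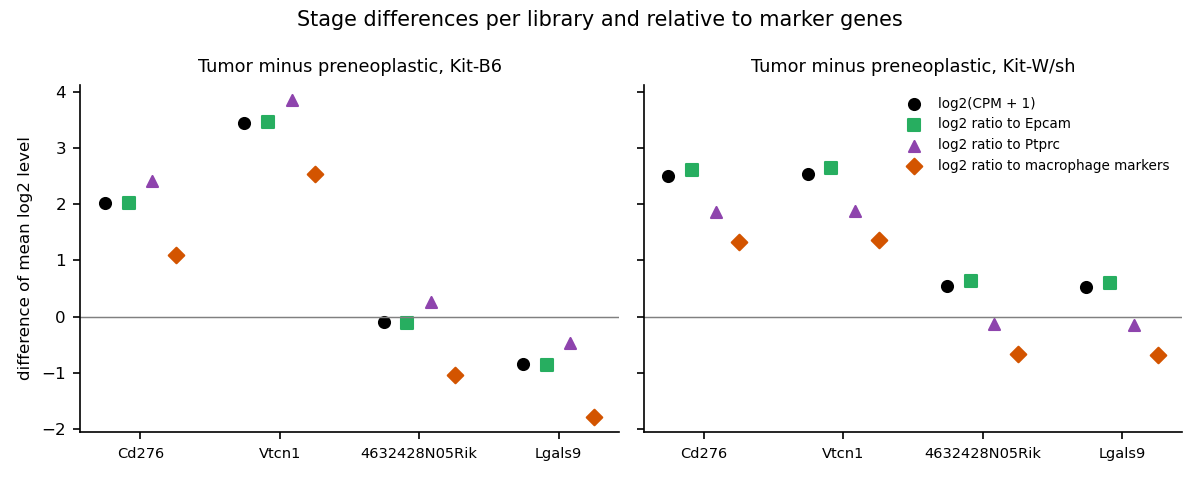
Difference of the mean log2 level, tumor minus preneoplastic, for each ligand as CPM and relative to Epcam, Ptprc or the summed macrophage markers of the same library. All symbols lie above 0 for Cd276 and Vtcn1 in both genotypes, and those for 4632428N05Rik fall on both sides of 0.

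The second question was whether the ligands differed between the genotypes. In tumors, 0 of the 4 passed edgeR's test, and 0% of the 799 genes tested did. Without adjustment, 109 genes (13.6%) had a p under 0.05, DESeq2 called 21, and edgeR called 15 without both libraries that stand apart. The log2 difference, Kit-W/sh minus Kit-B6, was 0.07 ± 0.26 for Cd276 (edgeR adjusted p = 0.942) and -0.16 ± 0.34 for Vtcn1 (0.872). It was 0.23 ± 0.24 for 4632428N05Rik (edgeR adjusted p = 0.685) and 0.16 ± 0.18 for Lgals9 (0.713). The tumor groups overlapped for each ligand, as for all but 0.626% of the genes tested, although all 6 Kit-W/sh tumors were above the Kit-B6 median of 4632428N05Rik. These tests do not show that the genotypes were equal.

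In preneoplastic colon, 0 of the 4 ligands passed, where 0.129% of the 777 genes tested did, which is 1 gene, the interferon-induced regulator Irf7. Without adjustment, 83 genes (10.7%) had a p under 0.05, and DESeq2 called 20. Lgals9 had the greatest difference of the 4, -1.26 ± 0.29 on the log2 scale, 2.4-fold lower in Kit-W/sh, with an unadjusted p of 0.003895 and an edgeR adjusted p of 0.2535. Both Kit-W/sh samples were below all 3 Kit-B6 samples, where 29.7% of the 777 genes did not overlap, 16.3% higher and 13.4% lower in Kit-W/sh. The exact permutation p was 0.2, the smallest that 3 against 2 samples allow with both tails counted. DESeq2 gave -1.25 with an adjusted p of 0.00306. Without Kit-B6 preneoplastic 1 the difference was -1.48, edgeR's adjusted p was 0.00975 and 16 genes were called in all. Cd276 (-0.34 ± 0.34, edgeR adjusted p = 0.735) was also lower without overlap. Vtcn1 (0.69 ± 0.55, edgeR adjusted p = 0.659) and 4632428N05Rik (-0.28 ± 0.32, edgeR adjusted p = 0.801) overlapped.

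Irf7 and Ptprc are given beside Lgals9 because they varied among the same samples. Irf7 measured 3852, 4537 and 5015 CPM in the Kit-B6 samples, against 996.5 and 1160 in the Kit-W/sh ones. Most interferon gamma response genes moved against Irf7. Of 10 tested, 8 had a positive log2 difference, Kit-W/sh minus Kit-B6, and 2 a negative one (median 0.65). EdgeR called 0 of them, and Irf1 differed by 0.56 ± 0.16 (edgeR adjusted p = 0.327). Among the Kit-B6 samples Ptprc measured 150.3, 725.6 and 389 CPM, and the Kit-W/sh samples had 233.3 and 200.9. Ptprc overlapped between the genotypes where Irf7 and Lgals9 did not. Relative to Ptprc the Lgals9 difference was -0.51 with overlap (exact permutation p = 0.6), relative to Epcam -1.27 and relative to the macrophage sum -1.35. B cell markers (7 of 8 measured) were 143 to 2757 CPM in Kit-B6 and 141.7 to 294.8 in Kit-W/sh. Their part in the Lgals9 difference was not tested.

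**Figure D4:**
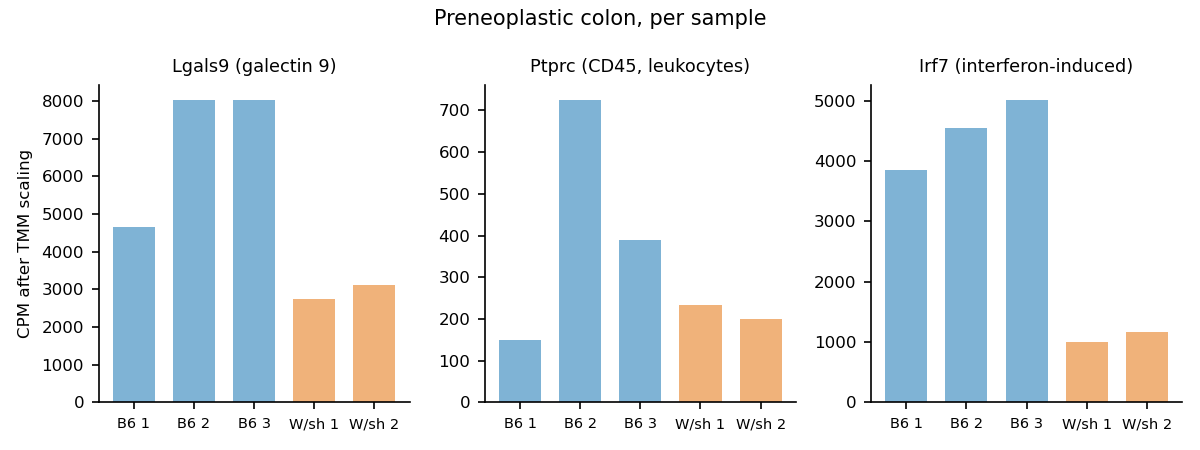
Level of Lgals9, Ptprc and Irf7 in each of the 5 preneoplastic samples (CPM after TMM scaling, bars from 0, each bar 1 sample). Both Kit-W/sh samples are below all Kit-B6 samples for Lgals9 and Irf7, while Kit-B6 preneoplastic 1 has the lowest Ptprc.

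The genotype-by-stage interaction asked whether the stage difference itself differed between Kit-W/sh and Kit-B6. It passed for 0 of the 4 ligands, and 0% of the 869 genes tested passed. Without adjustment, 63 genes (7.25%) had a p under 0.05, and DESeq2 called 1. The interaction was 1.41 ± 0.36 for Lgals9 (unadjusted p = 0.001186, edgeR adjusted p = 0.515), 0.40 ± 0.49 for Cd276 (0.879), -0.86 ± 0.70 for Vtcn1 (0.854) and 0.50 ± 0.44 for 4632428N05Rik (0.854). A genotype difference in the stage response was therefore not shown for any of them.

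Other checkpoint genes are given for comparison, as counts and medians. The counts of these lists are read against the shares of all 869 genes tested by stage. Those were 22.2% higher and 18.9% lower in Kit-B6 tumors, and 20.9% and 18.8% in Kit-W/sh tumors. Of the 5 other B7 family ligands, 0 rose and 1 fell in Kit-B6 tumors (median -0.176), and 1 rose and 0 fell in Kit-W/sh tumors (median 0.92). Icosl, the ligand of the costimulatory receptor ICOS, fell in Kit-B6 (-0.86 ± 0.24, edgeR adjusted p = 0.00911), and Cd80, a ligand of CD28 and CTLA-4, rose in Kit-W/sh (1.70 ± 0.58, edgeR adjusted p = 0.0283). Cd274, which encodes PD-L1, differed by -0.54 ± 0.36 (edgeR adjusted p = 0.235) and -1.0 ± 0.40 (0.0548). The median over all genes tested was -0.003 in Kit-B6 and 0.081 in Kit-W/sh, and over the 4 ligands 1.066 and 1.552.

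Among 6 measured genes of other checkpoint ligands, 0 rose and 3 fell in Kit-B6 tumors, and 0 rose and 4 fell in Kit-W/sh tumors. Ceacam1, an adhesion molecule and proposed TIM-3 ligand, fell by 1.48 ± 0.24 in Kit-B6 (edgeR adjusted p = 0.000197) and by 1.52 ± 0.27 in Kit-W/sh (0.000603), on the log2 scale. Hmgb1, a nuclear protein released from damaged cells, fell by 1.45 ± 0.28 and 1.48 ± 0.31. Btnl2, a butyrophilin-like T cell inhibitor, fell by 2.77 ± 0.67 and 3.01 ± 0.72. Its tumor levels rested on few counts, 39 over the 6 Kit-B6 libraries and 46 over the 6 Kit-W/sh ones. Ceacam amplicons of near-identical relatives can share reads, so Ceacam1 is uncertain.

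Of 11 measured checkpoint and costimulatory receptors, 1 rose and 3 fell in Kit-B6 tumors, and 0 rose and 1 fell in Kit-W/sh tumors. With 41.1% and 39.7% of all genes called, these counts are not read as a result about receptors. Havcr2, which encodes TIM-3, rose in Kit-B6 (1.20 ± 0.47, edgeR adjusted p = 0.0482). Cd160, a receptor of natural killer and intraepithelial T cells, fell by 2.90 ± 0.65 in Kit-B6 (edgeR adjusted p = 0.00254) and by 3.07 ± 0.69 in Kit-W/sh (0.003). Btla and Lag3, both inhibitory receptors of lymphocytes, fell in Kit-B6 by 3.10 ± 0.95 (edgeR adjusted p = 0.0168) and 1.65 ± 0.52 (0.0189). These falls rested on few tumor counts: over 6 libraries, Cd160 had 27 in Kit-B6 and 37 in Kit-W/sh. In Kit-B6 tumors Btla had 47 and Lag3 had 35. Among 4 measured genes proposed to bind the ligands, 3 rose in each genotype, though not the same 3. Tnfrsf9 and Cd44 passed in both. Havcr2, also counted among the receptors, passed in Kit-B6 alone, and Selplg in Kit-W/sh alone (1.48 ± 0.37, edgeR adjusted p = 0.00556). Tnfrsf9 (4-1BB), a costimulatory receptor proposed to bind galectin 9, rose by 4.58 ± 0.91 in Kit-B6 (edgeR adjusted p = 0.00116) and by 4.96 ± 1.05 in Kit-W/sh (0.0021). Its preneoplastic counts were few, 7 over the 3 Kit-B6 libraries and 9 over the 2 Kit-W/sh ones, so the size of its rise is imprecise. Cd44, a hyaluronan receptor, rose by 1.89 ± 0.41 (edgeR adjusted p = 0.00207) and 2.50 ± 0.51 (0.00163). Of the interferon gamma response genes, 11 tested, 1 rose and 3 fell in Kit-B6 tumors and 0 rose and 3 fell in Kit-W/sh tumors. These counts too are set beside the 41.1% and 39.7% of all genes and are not read as a result about interferon. Irf1, an interferon-induced transcription factor, fell by 1.28 ± 0.22 (edgeR adjusted p = 0.000419) and 1.77 ± 0.25 (0.000136). None of these lists had a gene called by edgeR between genotypes at either stage, against the 0% and 0.129% of all genes given above.

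**Figure D5:**
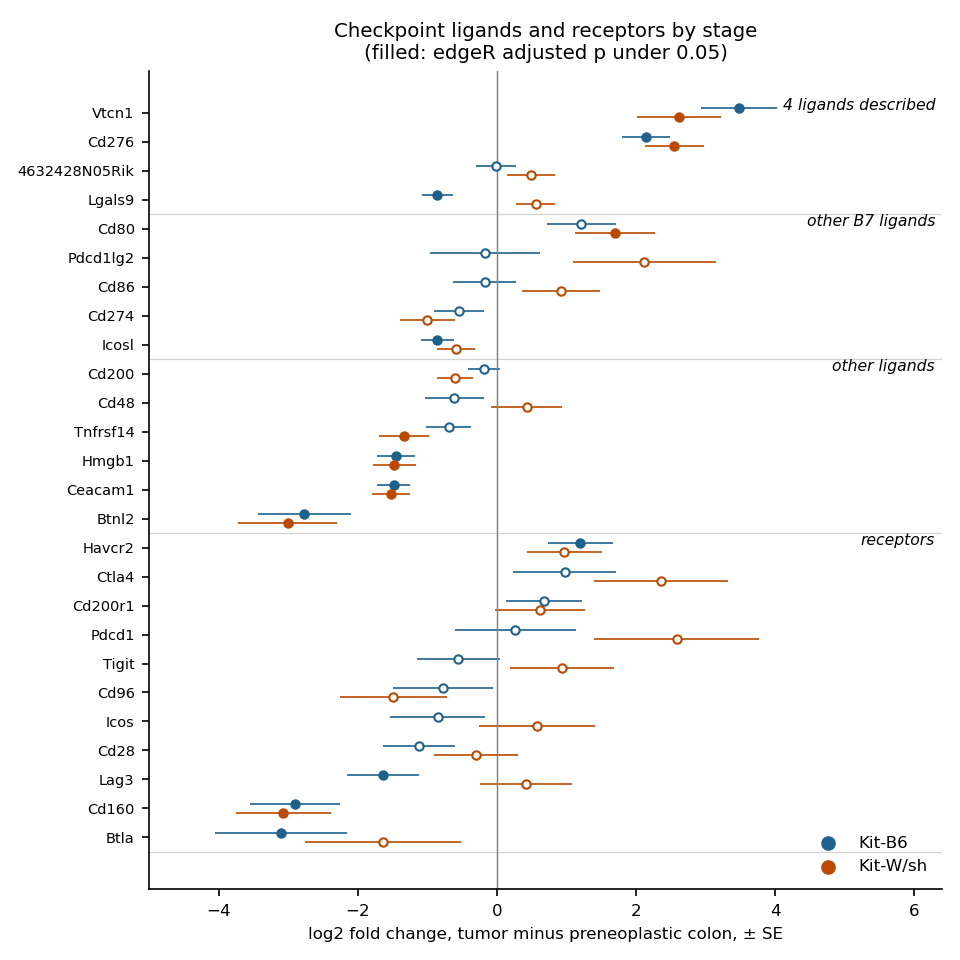
Log2 fold change ± SE, tumor minus preneoplastic, of the 4 ligands and the other measured checkpoint ligands and receptors in each genotype, filled where edgeR's adjusted p was under 0.05. Vtcn1 and Cd276 are filled to the right of 0 in both genotypes, and Ceacam1, Hmgb1, Btnl2 and Cd160 to the left in both.

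Likeness between genes was described over the 12 tumors, as Spearman's rho of log2(CPM + 1) among 798 other genes tested in tumors, with no test. These libraries share their scaling and the mix of cells, so a high rho says only that levels varied alike. Closest to Cd276 were Btg3 (rho 0.92), Blvrb (0.90) and Itgav (0.90). Closest to Vtcn1 were Creb3l2 (0.87), Csnk1e (0.85) and Fn1 (0.85), the last a fibronectin gene of the fibroblast list. Closest to 4632428N05Rik were Fyb, an adaptor of leukocytes (0.93), Icos (0.92) and Adgre1, the macrophage marker F4/80 (0.91). Lgals9 had no gene as close: Ccl17 (0.73), Cxcl12 (0.71) and Capzb (0.69) led, and Pearson's r for Ccl17 went from 0.47 to 0.32 without the 2 tumors farthest from the median. Among the ligands, Cd276 and Vtcn1 had a rho of 0.62, and the other 5 pairs lay between -0.04 and 0.27.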

How the data were processed

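The authors deposited a table of raw counts for each sample. Its header does not say whether reads or molecular tags were counted, and an aligner or counter is not given in the sources used here. The submitters' processing notes named mm9 and DESeq2, without a version. Each table held 993 entries: 988 genes and 5 genomic DNA control amplicons with 0 counts, which were left out.

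Groups came from the sample titles. No pair of libraries within a group agreed within counting noise, and no label says that each sample is a separate mouse. The p-values then reflect only sample-to-sample spread, which may be technical.

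Counts were tested with edgeR 4.0.16 in R 4.3.3 (TMM scaling, minimum count 10 and total 15, robust quasi-likelihood test, two-sided, Benjamini-Hochberg over all genes tested, threshold 0.05). Genotypes were compared within each stage's libraries, and stages and the interaction in 1 fit of all 17. The SE is the log2 fold change over the root of F. Exact permutation tests used scipy 1.17.1 and a pseudocount of 1. DESeq2 1.42.0, other scalings, no filter, a replicate block and leaving out libraries were alternatives. The fitting code was tested on simulated counts.

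The 4 ligands were named in every sample, with up to 4 genes of smallest p per list and the 3 most alike genes. Members, lists and motifs were chosen with earlier results of these data known.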

Additional observations from a re-analysis of the deposited data

Results flagged for a closer look

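The stage difference of Lgals9 had opposite signs in the genotypes, -0.86 in Kit-B6 (edgeR adjusted p = 0.00704) and 0.56 in Kit-W/sh, which did not pass (0.118), on the log2 scale. Relative to Ptprc (-0.465 and -0.149) and to the macrophage sum (-1.774 and -0.68) both genotypes had the same sign. Relative to Epcam (-0.853 and 0.606) the signs stayed opposite, so this depended on the marker used. All 6 Kit-B6 tumors were below the Kit-B6 preneoplastic median, and all 6 Kit-W/sh tumors were above the Kit-W/sh one. That pattern was the rule by which Lgals9 was flagged, so it adds no separate support. The share of all genes with such a pattern was not taken. The test of the difference itself gave an interaction of 1.41 ± 0.36 (unadjusted p = 0.001186), with an edgeR adjusted p of 0.515 that missed the threshold. Over the alternatives other than leaving out 1 library, that adjusted p ran from 0.0873 to 0.726. The Kit-W/sh preneoplastic group has 2 samples.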

How the results depend on the processing

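The scaling by the last-listed genes, the fits without both libraries that stand apart (Kit-B6 tumor 4 and the library labelled Kit-W/sh tumor 2) and the ratios to marker genes were chosen after seeing the data. Over all alternatives run, 417 values kept direction and side of the threshold, 30 changed sign, 5 came to pass it and 4 no longer passed. For these ratios the threshold was that of the unadjusted exact permutation p, and no permutation result passed after adjustment over its 16 tests. The stage tests had little or no room to do so, given their smallest possible p. In the count models, Cd276 and Vtcn1 by stage stayed called in Kit-B6 (1.95 to 2.92 and 3.45 to 4.34 on the log2 scale, and 2.04 to 2.30 and 3.13 to 3.89 leaving out 1 library), as did Cd276 in Kit-W/sh (2.33 to 3.02, and 2.47 to 2.63). Relative to the macrophage sum Cd276 was 1.10 and Vtcn1 2.54 in Kit-B6. Vtcn1 in Kit-W/sh ranged from 2.29 to 3.03 leaving out 1 library, and lost its call at the lowest value.

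In tumors, Cd276 between genotypes was -0.0014 with reference gene scaling and -0.0116 without both libraries, and -0.11 to 0.18 leaving out 1, while Vtcn1 was -0.41 to 0.16. In preneoplastic colon 4632428N05Rik was -0.8465 to 0.0822 leaving out 1 library. By stage in Kit-B6, 4632428N05Rik was 0.0039 with RLE scaling, 0.22 unscaled, 0.75 with reference genes, 0.0788 with last-listed genes, 0.0052 with DESeq2, 0.0697 without both libraries and -0.2273 to 0.0925 leaving out 1. Lgals9 between genotypes in preneoplastic colon came to pass with DESeq2 (-1.25), and was -1.48 to -1.14 leaving out 1 library. By stage, Lgals9 was -0.11 with reference genes in Kit-B6, no longer passing, and in Kit-W/sh 0.80 unscaled and 1.01 with reference genes, both passing. The cause was not tested.

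By exact permutation relative to Ptprc and to the macrophage sum, the tumor genotype differences were -0.177 and -0.24 for Cd276, -0.042 and -0.105 for 4632428N05Rik, and -0.193 and -0.256 for Lgals9. In preneoplastic colon, relative to Ptprc, Cd276 was 0.371 and 4632428N05Rik 0.352. By stage in Kit-B6, 4632428N05Rik was 0.271 relative to Ptprc and -1.037 relative to the macrophage sum. The latter passed only without adjustment (exact permutation p = 0.0238, 0.0952 adjusted), and Lgals9 missed the unadjusted threshold at -0.853 relative to Epcam and -0.465 relative to Ptprc. By stage in Kit-W/sh, 4632428N05Rik was -0.124 and -0.654, and Lgals9 -0.149 and -0.68.

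Same-numbered samples deviated together only weakly or not at all (correlations from -0.19 to 0.40), so the numbers were not taken to pair them. With the replicate block, no call on the 4 ligands changed: the Lgals9 stage difference in Kit-B6 was -1.02, and the genotype difference in preneoplastic colon -1.12. The block moved the genes called by stage from 357 to 276 in Kit-B6 and from 345 to 250 in Kit-W/sh. Counts of genes called moved by over 1.5 times with DESeq2 between genotypes, from 0 to 21 in tumors and from 1 to 20 in preneoplastic colon, and by stage in Kit-W/sh from 345 to 132 without Kit-W/sh preneoplastic 1 and to 159 without preneoplastic 2. Without Kit-B6 preneoplastic 1, 16 genes were called between genotypes in preneoplastic colon and 2 for the interaction, and without both libraries that stand apart 15 were called between genotypes in tumors. The 1 preneoplastic genotype call was lost, leaving 0, without Kit-B6 preneoplastic 3 or either Kit-W/sh sample, with unscaled totals, with last-listed genes, with the replicate block and in 1 fit of all libraries. Low counts and 2 to 3 samples limit precision in preneoplastic colon.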
